A study of Mus musculus with 9 samples.

Results

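This account covers the comparison of middle cerebral artery occlusion followed by vehicle (MCAO) with sham surgery in the mouse brain, across all genes on the array. Its members were chosen by title: the 3 arrays of the MCAO group and the 3 arrays of the sham group, 6 of the 9 arrays in the series. Every non-control probe entered. The account keeps mainly to single genes and families other than cytokines and markers of glia, and gives the genes that fell as much room as those that rose. Some families also hold glial markers, such as Timp1, Spp1, Cd44, Vim, Nes, Gfap and Lgals3, which are described with them.

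The mice were adult males of the strain labelled C57/BL6, 50 to 53 days old, with no allele or transgene named, and all were fasted overnight before surgery. MCAO mice had the artery closed for 90 min and then reopened, and 3 h after reperfusion 1 µl of phosphate-buffered saline was injected into the right lateral ventricle. For the sham mice the labels give sham surgery and name no injection. Brains were taken 24 h after reperfusion, 21 h after the injection. The labels give the tissue only as brain, without the side or region, and each array of a group came from a different mouse. The third group of the series, which received VEGF after occlusion, entered the statistical fit for its spread. Its arrays also counted in deciding which probes were kept and which probe stood for each gene.

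Closing the middle cerebral artery cuts the blood supply to much of the cortex and the striatum. Neurons in the core lose their ion gradients and die within hours, and cells around the core survive longer with altered gene activity. In the first day glia respond, vessel walls become leaky, and blood monocytes and neutrophils enter the tissue. Transient occlusion adds the return of blood flow, which brings oxygen and blood cells back to injured vessels.

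RNA was hybridised to 1-colour Agilent arrays. On the 6 arrays the share of spots well above background, controls left out, was 78.7% to 81.8%, and none was saturated. Values are given as scaled intensity, the processed signal brought to the same 75th percentile (1460) on every array, and differences as log2 units of MCAO minus sham, ± the standard error of the limma fit with n = 3 arrays per group. Each gene stands for its brightest probe. A gene is called when its adjusted p in limma (Benjamini-Hochberg, all 30837 genes tested) is under 0.05. Array pairs correlated at 0.990 to 0.993 within sham, 0.949 to 0.993 within MCAO and 0.912 to 0.970 between the groups, across genes, which are not independent replicates. MCAO array 1 stood apart: on it the median of 16 neuron markers lay at -2.43 log2 units from the sham mean, against -0.73 and -0.42 on arrays 2 and 3. Its scan was made on a different day from the rest, and its signal was not spatially detrended. Its 75th-percentile signal before scaling was 923, against 1420 to 1530 on the sham arrays and 2070 and 1980 on MCAO arrays 2 and 3. VEGF array 1, at 848, was also dimmer than its group, and calls are given as well from a fit of the other 7 arrays. That fit holds only arrays 2 and 3 of the MCAO and VEGF groups beside the 3 sham arrays. It leaves out the MCAO array that stood apart, with its values known. All sham arrays lay on 1 slide and all MCAO arrays on another, so slide and occlusion cannot be told apart, and neither can the injection.

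limma called 868 genes, or 2.81% of those tested. Of these, 703 were higher (2.28%) and 165 lower (0.535%), and on all 868 the sham and MCAO arrays did not overlap, as was so for 40.3% of all genes. The 7-array fit called 3018 genes higher (9.79%) and 4010 lower (13%), and all 868 genes were among them with the same sign. The shares over all genes in each fit are the background for the list counts below. The median difference over all genes was -0.04 in the fit of 9 arrays and -0.10 in the fit of 7. Leaving out sham array 1, 2 or 3 left 190, 256 or 248 called genes, leaving out MCAO array 1, 2 or 3 left 1177, 525 or 383, and leaving out VEGF array 1, 2 or 3 left 2583, 769 or 867. Without MCAO array 1 alone 627 of the 868 stayed called. The 7-array counts thus rest on leaving out VEGF array 1 as well. Whichever single array was left out, 169 of the genes that rose and 13 of those that fell stayed called. Without any 1 sham array, 15 to 24 genes were called lower. Of the 165 genes called lower, 58 have no gene symbol here, as have 135 of the 703 called higher. All 16 neuron, 10 astrocyte and 10 oligodendrocyte markers were above background in both groups. None of the 10 oligodendrocyte markers lay below 0 and none was called in either fit. Their median was 1.22, at 1.86, 1.09 and 0.40 on MCAO arrays 1 to 3. Their sums varied widely and overlapped, at 147528 to 550530 in sham and 406800 to 1096680 in MCAO. The astrocyte markers had a median of -0.05. In bulk tissue, fewer cells of a type and less RNA per cell cannot be told apart.

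The 30 largest falls with a symbol were taken from called genes whose groups do not overlap and whose deposited signal matched the recomputed one. Separation of the groups was thus a condition for these falls, and for the largest rises below, not a finding. The falls were a mixed group that held receptors, secreted proteins and transcription factors. Of the 868 called genes 8 (4 higher, 4 lower) rest on probes whose deposited signal did not match, for a reason not found, and these were not named by the rule. Prr7 was 1 of them and is named after its values were seen. Before scaling its deposited signal was 63, 63.5 and 56.4 in sham and 5.81, 8.13 and 8.06 in MCAO, while the recomputed signal was 17300, 9590 and 23500 in sham and 3390, 2620 and 2350 in MCAO. Both versions were lower in MCAO, at very different levels. Fibcd1, a membrane receptor that binds acetylated sugars, had scaled intensities of 2160, 915 and 1170 on sham arrays 1 to 3 and 32.8, 92.4 and 67.3 on MCAO arrays 1 to 3. Sham array 1 was the highest of the 6 and MCAO array 1 the lowest, and no MCAO value came near a sham value. Slc2a5, a fructose transporter known in the brain from microglia, read 1370, 1630 and 1620 in sham and 80, 190 and 247 in MCAO. Its sham values lay close together and far above all MCAO values. Without the pair of arrays the differences were -4.07 (limma adjusted p = 0.0142) and -2.82 (0.000513) log2 units.

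Retnla, a secreted protein of alternatively activated macrophages, read 82.6, 84.6 and 58.3 in sham and was not well above background on any MCAO array, a fall of at least 6.65-fold. This bound, like those that follow, sets the bright group's mean against the lowest signal that counted as well above background on each array, or the gene's own reading where higher. It holds by that definition, since background is judged spot by spot and some brighter readings did not count as above it. Ankrd63, an ankyrin-repeat protein, read 441, 306 and 241 against 21.4, 38.1 and 20.2, with 2 of the 3 MCAO arrays above background. The nicotinic acetylcholine receptor subunit gene Chrna10 read 265, 266 and 102 against 21.1, 21 and 22, again with 2 of 3 MCAO arrays above background. The MCAO values of Chrna10 hardly varied, while sham array 3 was lower than the other sham arrays. Myoc, which encodes the extracellular glycoprotein myocilin, read 4290, 2330 and 2410 in sham and 234, 510 and 438 in MCAO, and Fmod, the collagen-binding proteoglycan fibromodulin, 2850, 1550 and 1630 in sham and 288, 362 and 410 in MCAO. For both, sham array 1 was the highest and MCAO array 1 the lowest of the 6.

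Myh7, the slow myosin heavy chain, had intensities of 23000, 19900 and 16200 in sham and 1670, 3690 and 3980 in MCAO, a fall by 2.75 ± 0.53 log2 units (limma adjusted p = 0.0329). Capn3, a calcium-dependent protease of muscle, read 2230, 2620 and 2570 in sham and 320, 777 and 689 in MCAO, and fell by 2.15 ± 0.41 log2 units (limma adjusted p = 0.0305). Trdn, which anchors the calcium release complex of the sarcoplasmic reticulum, fell by at least 3.01-fold to a level not well above background on any MCAO array. Filip1, which binds filamin, read 1880, 1250 and 719 against 258, 236 and 234 and fell by 2.30 ± 0.40. The MCAO values of Filip1 lay within a narrow band below all sham values, which spread more widely.

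Egr4, an activity-dependent zinc-finger transcription factor, read 15300, 13800 and 23200 in sham and 2330, 3080 and 2750 in MCAO. The bHLH factor Twist2 read 918, 670 and 611 in sham and 127, 195 and 163 in MCAO. The groups were far apart for both genes, and the falls were 2.65 ± 0.35 and 2.18 ± 0.38 log2 units (limma adjusted p = 0.00807 and 0.0229). Nr4a2, an orphan nuclear receptor needed by dopamine neurons, read 18600, 19700 and 26400 against 2980, 9980 and 2040. MCAO array 2 was several times above the other MCAO arrays, and the adjusted p lay just under the threshold (limma adjusted p = 0.0498). Nr4a2 was not called with quantile scaling, with the mean of its probes, with age in the fit or with the 6 arrays alone.

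Dio3, the deiodinase that inactivates thyroid hormone, fell by 2.34 ± 0.43 log2 units, from 368, 221 and 207 to 59, 57.1 and 38.7. Slc19a3, a transporter of the vitamin thiamine, read 135, 182 and 161 in sham and 20.9, 41.7 and 42.2 in MCAO, where 2 of 3 arrays were above background. Akr1c14, a steroid reductase, read 146, 166 and 143 in sham and 33, 39.8 and 20.8 in MCAO. In each of these the lowest sham array was above the highest MCAO array. limma gave adjusted p of 0.0275 for Dio3, 0.0156 for Slc19a3 and 0.0323 for Akr1c14.

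Mdga1, a membrane-anchored protein that binds neuroligins at synapses, fell by 2.68 ± 0.38 log2 units (limma adjusted p = 0.0107), from 8540, 6800 and 8970 to 1110, 1610 and 1100. Dimmer falls included Plcz1 (712, 483 and 264 against 17.3, 37.8 and 45.2), a phospholipase known from sperm, and Stpg1 (570, 206 and 252 against 26.2, 51.4 and 92.2). Upk1b, a tetraspanin of epithelia, read 103, 89.7 and 63.1 in sham, and 1 of 3 MCAO arrays was above background. The predicted gene Gm10790 fell by 2.92 ± 0.52, and Gm10754 read 50.1, 117 and 62.6 in sham and 4.41, 19 and 12 in MCAO, where 2 of 3 arrays were above background. Bounds were at least 4.94-fold for Igbp1b, 4.54-fold for the plasma-cell receptor Tnfrsf17, 2.80-fold and 2.57-fold for the odorant receptor genes Olfr510 and Olfr464, 2.38-fold for the killer-cell receptor Kir3dl1 and 1.93-fold for the Nodal co-receptor Cfc1. These 6 were dim in sham too, with readings of 16.4 to 112. With normexp background correction, 17 of the 30 named falls stayed called. Among those lost were Retnla, Chrna10, Upk1b, Akr1c14, Stpg1, Gm10754 and the 7 with a bound other than Retnla. Gm10754 was also lost with quantile and median scaling, and Kir3dl1 with the 6 arrays alone. Whichever array was left out, Egr4, Fmod, Myoc and Retnla stayed called, and without sham array 1, 2 or 3 limma called 6, 6 and 9 of the 30. Without MCAO array 1, 2 or 3 it called 21, 17 and 12.

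**Figure D1:**
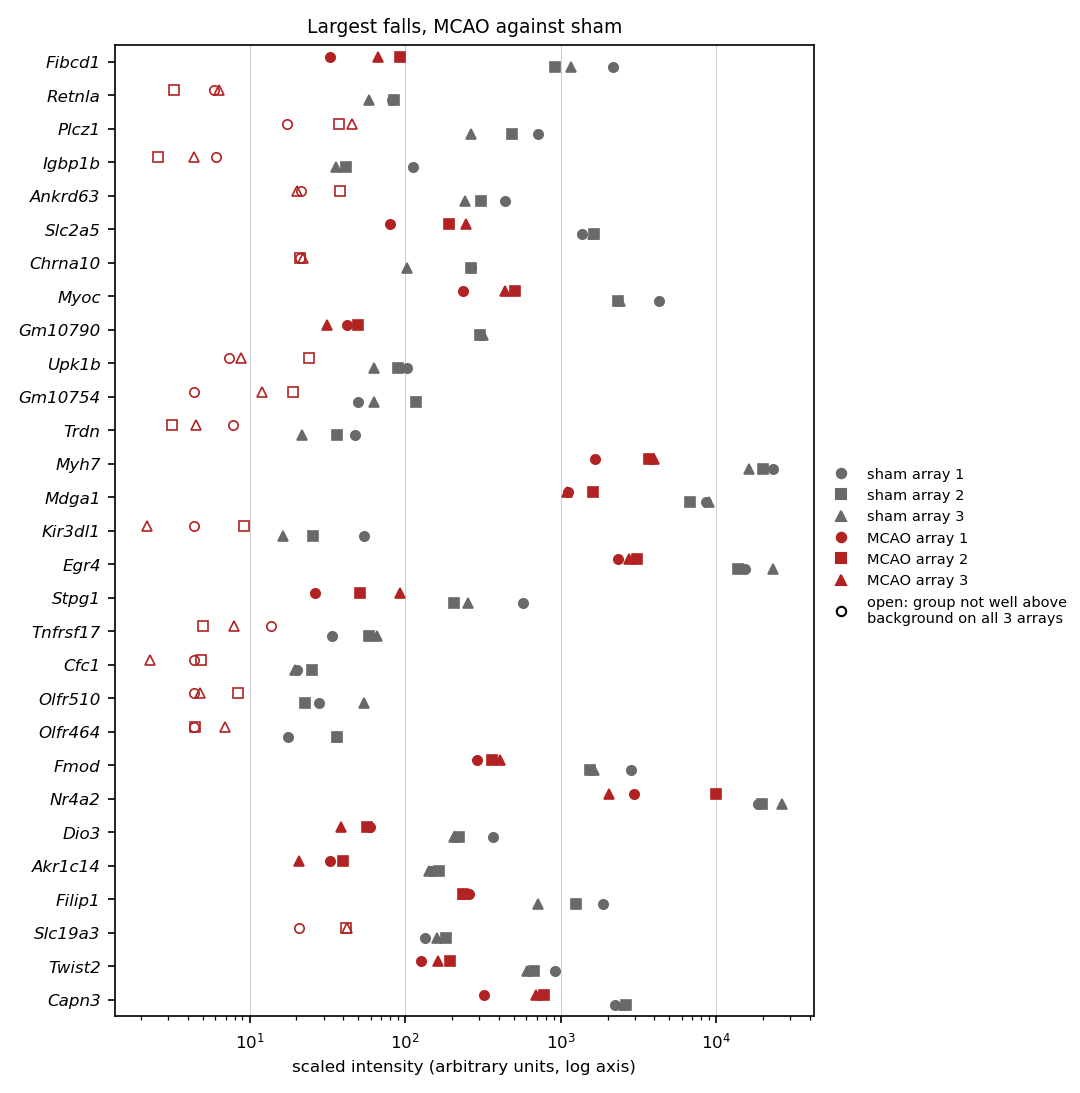
Scaled intensity on each of the 3 sham (grey) and 3 MCAO (red) arrays for 29 of the 30 largest falls, on a log axis. Open symbols mark a group that was not well above background on all of its arrays. In every gene the 3 MCAO symbols lie left of the 3 sham symbols, because the genes were chosen for groups that do not overlap. Fibcd1 read 2160, 915 and 1170 in sham and 32.8, 92.4 and 67.3 in MCAO.

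Most brain-specific families showed a shared downward shift whose size depended on the array, with few single genes called. Neurons signal through voltage-gated channels, which carry the impulse, and through transmitter receptors, which receive it. Of 67 potassium channel subunit genes tested, none was called and 55 lay below 0, with a median of -0.82 log2 units against -0.04 over all genes. That median was -1.76 on MCAO array 1, -0.44 on array 2 and -0.34 on array 3, where all genes stood at 0.21, -0.11 and -0.09. The 7-array fit called 12 of the 67 lower, or 17.9% against 13% of all genes, and 2 higher. Kcnip2, a channel-interacting protein of the A-type current, read 2650, 1860 and 1700 in sham and 95, 529 and 429 in MCAO, and Kcng1, a modifier subunit, 4830, 4060 and 2850 in sham and 94.3, 726 and 617 in MCAO. On MCAO array 1 both were several times lower than on arrays 2 and 3, which were in turn below all sham arrays. Their 7-array differences were -2.09 (limma adjusted p = 0.00317) and -2.51 (0.0132). Others called lower there were Kcnj4, Kcnv1 and Kcnq3, the last a subunit of the M-current.

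Of 34 sodium and calcium channel genes, Cacng8 alone was called, with 558, 276 and 449 in sham and 80.2, 132 and 166 in MCAO (limma adjusted p = 0.0344). Cacng8 encodes a protein that escorts AMPA receptors, and it was not called with quantile scaling. The list's median was -1.10, and 11 of the 34 were called lower without the pair of arrays. They included the L-type channel gene Cacna1c, at 130, 89.9 and 89.5 in sham and 49.8, 44.9 and 46.1 in MCAO. Its 3 MCAO arrays lay close together, and the 7-array difference was -1.16 (limma adjusted p = 0.0106).

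None of 18 ionotropic glutamate receptor genes was called in the 9-array fit, 17 lay below 0, and their median was -1.19. All 4 AMPA receptor genes were called lower in the 7-array fit, from -0.92 for Gria1 to -0.63 for Gria4. Gria2, the subunit that limits calcium entry, read 1490, 1570 and 2020 in sham and 134, 965 and 817 in MCAO. The NMDA receptor subunit gene Grin2b read 9900, 5900 and 8820 in sham and 617, 3280 and 3150 in MCAO. On both genes MCAO array 1 was several times below arrays 2 and 3, which were themselves below all sham arrays. Of the 16 GABA-A and glycine receptor genes all 16 lay below 0, 8 of them called lower in the 7-array fit. Gabra2 was called in the 9-array fit, at 5070, 5750 and 5720 against 775, 1660 and 1820 (limma adjusted p = 0.0315). Gabra5, which is known from the hippocampus, read 5830, 4760 and 5960 in sham and 138, 2230 and 1760 in MCAO, with a 7-array difference of -1.47 (limma adjusted p = 0.00358).

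Among 29 monoamine receptor genes 26 lay below 0, yet the largest difference was a rise. Htr2b, a serotonin receptor, rose by 3.95 ± 0.35 log2 units (limma adjusted p = 0.00127), from 23.1, 25.6 and 37.8 in sham to 553, 520 and 289 in MCAO. Its relative Htr2a fell by 1.37 ± 0.26 (578, 735 and 765 to 242, 227 and 346; limma adjusted p = 0.0307). The 2 receptors couple to the same G protein and differed in direction on every MCAO array. Htr5b, Htr2c and the adrenergic receptor gene Adra2a were called lower in the 7-array fit, at -2.19, -2.10 and -1.60.

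Oxtr, the oxytocin receptor gene, was the single call among 35 neuropeptide and hormone receptor genes, falling by 1.28 ± 0.18 log2 units from 1400, 1540 and 1440 to 621, 525 and 665 (limma adjusted p = 0.00961). MCAO array 1 did not stand apart here. Trhr, the receptor for thyrotropin-releasing hormone, read 3490, 2400 and 1570 in sham and 114, 543 and 425 in MCAO, and Crhr2, for corticotropin-releasing hormone and urocortins, 1080, 1200 and 993 in sham and 665, 458 and 376 in MCAO. Both were called lower only without the pair, at -2.30 and -1.39 (limma adjusted p = 0.0493 and 0.0195). Among the 14 acetylcholine receptor genes Chrna10 was the single call, and Chrna7 was called lower in the 7-array fit, at -0.99. All 9 metabotropic glutamate and GABA-B receptor genes lay below 0, with 3 called lower in the 7-array fit, among them Grm5 at -0.85. Of the 6 channel and receptor genes called with all 9 arrays, Htr2b stayed called whichever array was left out. Chrna10 and Htr2a were not called with normexp background.

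Genes of the synapse also lay mostly below 0. Synpr, a vesicle membrane protein, fell by 1.86 ± 0.33 log2 units, from 18800, 23400 and 18200 to 3240, 7260 and 7100 (limma adjusted p = 0.0250). Among 46 vesicle and release genes 39 lay below 0, with a median of -1.14. Without the pair 11 were called lower (23.9%, against 13% of all genes). These included the release factors Doc2b (8890, 7430 and 5410 against 537, 1830 and 1020) and Unc13a (1050, 624 and 625 against 70, 265 and 247). Syt6, a synaptotagmin, went the other way and rose by 1.25 ± 0.26 (limma adjusted p = 0.0441), but was not called with median scaling, normexp background or without detrending.

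On the receiving side, 26 of 27 postsynaptic scaffold genes lay below 0, with a median of -1.31. The list holds Ankrd63, described with the falls. Shank3, a scaffold of excitatory synapses, read 13400, 9520 and 10500 in sham and 3530, 5090 and 4670 in MCAO and fell by 1.33 ± 0.25 (limma adjusted p = 0.0302). Dlg4, which encodes PSD-95, read 14500, 13500 and 17800 in sham and 2840, 5320 and 5740 in MCAO. It missed the threshold with 9 arrays (limma adjusted p = 0.0723) and passed with 7 (0.0100). Among 46 genes listed as synaptic adhesion organisers 1 was called with 9 arrays and 18 were called lower with 7. The single call was Fibcd1, described with the falls as a receptor that binds acetylated sugars. Cbln4, a secreted organiser of synapses, read 1080, 595 and 870 in sham and 47.8, 251 and 184 in MCAO.

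Calcium-dependent signalling enzymes held 3 called falls among 42 genes: the phosphatase inhibitor Ppp1r14c (-1.65 ± 0.28), the kinase subunit Camk2d (-1.44 ± 0.27) and protein kinase C epsilon, Prkce (-1.44 ± 0.31). Camk2d read 29100, 23400 and 21200 in sham and 8420, 8990 and 9640 in MCAO, and the 3 MCAO arrays differed little. With 7 arrays 15 of the 42 were called lower and none higher.

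G-protein regulators and cyclic nucleotide enzymes were split. Rgs1, a regulator of chemokine receptor signalling in leukocytes, read 7.54, 8.52 and 12.7 in sham, with 1 of 3 arrays above background, and 1360, 456 and 357 in MCAO (limma adjusted p = 0.0123). Rgs20 fell by 1.16 ± 0.25 and Rgs7bp rose by 1.86 ± 0.38, but 1 of 2 Rgs20 probes and 2 of 3 Rgs7bp probes had the opposite sign, so their direction depends on the probe. Adcy7, an adenylyl cyclase of immune cells, rose by 1.03 ± 0.20 (limma adjusted p = 0.0369), from 754, 1090 and 711 to 1800, 1620 and 1720. Rgs14 read 21800, 14600 and 16600 in sham and 1070, 4670 and 4920 in MCAO and was called lower with 7 arrays. The striatal phosphodiesterase gene Pde10a read 7160, 20200 and 5410 in sham and 1320, 2850 and 2890 in MCAO; sham array 2 was well above the other sham arrays, and it was called in neither fit. Prkce was not called with median scaling, normexp background or without detrending, and Rgs1 not with normexp background. With the mean of probes, Camk2d, Nr4a2, Rgs20, Rgs7bp and Shank3 were not called. Of the 14 synaptic and signalling genes called, Egr4 stayed called whichever array was left out.

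The 16 neuron markers moved with these families. All 16 lay below 0, none was called with 9 arrays and 5 were called lower with 7. Their summed scaled intensity was 1216930 to 1315300 in sham and 300234, 807160 and 966160 on MCAO arrays 1 to 3, and every marker was above background. The part of this shift in the single falls was not tested. Among 47 transcription factor genes of neurons, 43 lay below 0, and Egr4 and Nr4a2 were called. With 7 arrays 6 of the 47 were called lower, or 12.8% against 13% of all genes, and none higher. Bcl11b, a factor of deep-layer cortical and striatal neurons, read 14600, 9660 and 8950 in sham and 698, 4490 and 3450 in MCAO, with a 7-array difference of -1.46 (limma adjusted p = 0.0106).

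**Figure D2:**
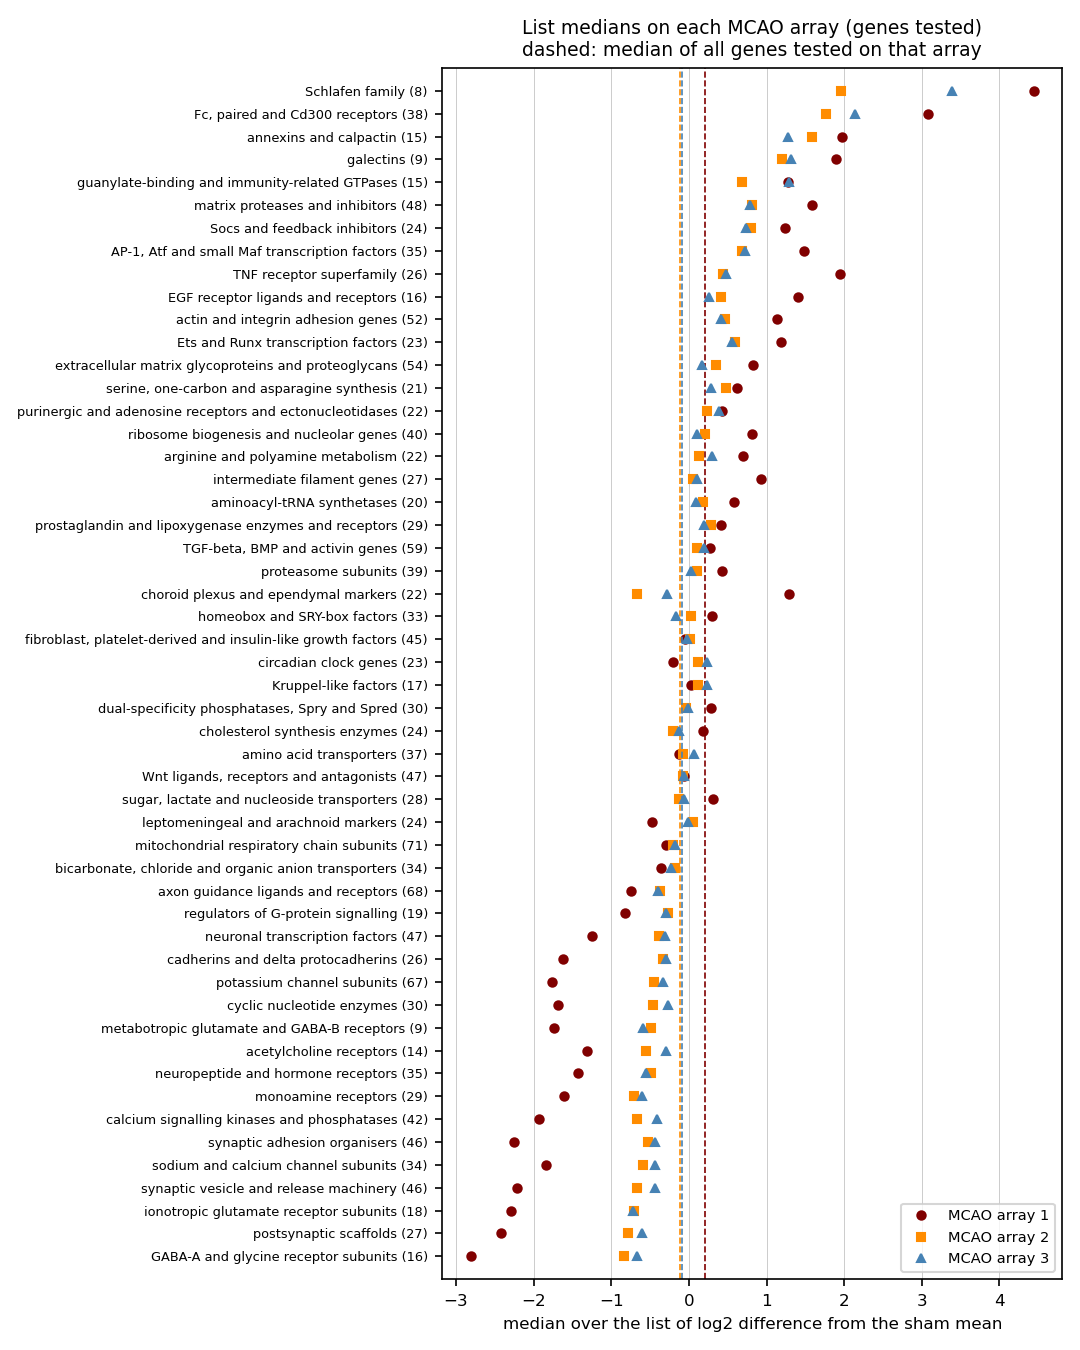
Median log2 difference from the sham mean for each of 52 gene lists on MCAO array 1 (circles), 2 (squares) and 3 (triangles), with the number of genes tested in brackets and the medians of all genes as dashed lines. The lowest median on array 1 is -2.81 (GABA-A and glycine receptors) and, for that list, -0.84 and -0.67 on arrays 2 and 3.

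Genes that guide axons and hold cells together were less uniform. Of 68 axon guidance genes none was called with 9 arrays, and the median was -0.55. With 7 arrays 17 were called lower (25%, against 13% of all genes) and 4 higher (5.88%, against 9.79%). Among the lower were Slit1 (15100, 12200 and 16600 in sham, 1650, 6400 and 5360 in MCAO), a repellent ligand, and Epha6. Efna1, an ephrin of vessels, was among the higher, at 616, 901 and 990 in sham and 4650, 3120 and 2730 in MCAO (7-array difference 1.83, limma adjusted p = 0.0217). Among 26 cadherin genes none was called with 9 arrays, and Pcdh19 came closest of the falls, at 20000, 17000 and 16800 against 3310, 6700 and 7330. Of 47 Wnt pathway genes 25 lay below 0 and the median was -0.04, the same as over all genes. One was called: Frzb, a secreted Wnt antagonist, fell by 1.91 ± 0.29 log2 units from 975, 1030 and 936 to 169, 327 and 318 (limma adjusted p = 0.0127), a call that was lost without any 1 of the sham arrays.

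Transporters of the vessel wall and other barriers gave single calls. Slco1a4, an organic anion carrier of brain endothelium, fell by 1.59 ± 0.25 log2 units from 2560, 2440 and 2150 to 689, 825 and 862 (limma adjusted p = 0.0150). Slco1c1, which carries thyroxine across the blood-brain barrier, read 2210, 2950 and 2940 in sham and 1770, 1450 and 1360 in MCAO, and was called lower with 7 arrays only, at -0.93 (limma adjusted p = 0.0143). Slc22a8, an organic anion transporter of barriers, read 810, 845 and 769 in sham and 36.6, 143 and 130 in MCAO and just missed the threshold (limma adjusted p = 0.0572). Over the 14 endothelial markers, by contrast, the median was 1.07, 2 were called lower and none higher, and the summed intensity was 103529 to 116086 in sham and 177749 to 476273 in MCAO, Slco1a4 being 1 of the 14. The part of vessel content in the transporter values was not tested.

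Rises among transporters were Clic1, a chloride channel protein of macrophages (3.94 ± 0.58; limma adjusted p = 0.0120), and Slc16a10, a carrier of aromatic amino acids (2.42 ± 0.32; 0.00780). Slc43a1, a carrier of large neutral amino acids, rose from 15.3, 18.1 and 18.1, with 2 of 3 sham arrays above background, to 43, 89.9 and 64, and Slc28a2, a concentrative nucleoside transporter, rose at least 14.1-fold from below background in sham. Clic1 read 1020, 1620 and 1610 in sham and 29800, 18300 and 17700 in MCAO. Over the 37 amino acid transporters the median was -0.01, and over the 28 sugar, lactate and nucleoside transporters -0.05, both close to that of all genes. With normexp background Slc16a10, Slc28a2 and Slc43a1 were not called, and with median scaling 5 of the 37 amino acid transporters were called higher in place of 2.

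None of 71 respiratory chain subunit genes was called with 9 arrays. Their differences ran from -0.59 to 0.20, 64 of 71 were below 0, and the medians on the 3 MCAO arrays were -0.29, -0.21 and -0.18. Over the scalings tried, 62 to 69 of the 71 were below 0. The list thus differed less between MCAO array 1 and the others than any synaptic list did. No circadian clock gene of 23 was called with 9 arrays, and the sign of that list's median changed with the scaling. With 7 arrays 3 were called higher, or 13% against 9.79% of all genes. They included Nfil3 (1980, 2270 and 3190 in sham, 13100, 6500 and 5370 in MCAO) and Cry1.

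The leptomeninges, the thin membranes around the brain, contribute genes of their own. Of 24 such genes 3 fell, Myoc, Fmod and Upk1b, and none rose, while the median of the list was -0.16. With 7 arrays 4 were called lower (16.7%, against 13% of all genes) and 6 higher (25%, against 9.79%). A subset of 11 of these genes, fixed as leptomeningeal markers, had summed intensities of 44557 to 64802 in sham and 47831.8 to 87892.4 in MCAO, with a median of 0.13. The ranges of the marker sum overlapped. Myoc, Fmod and Upk1b were separated, as all called genes were, so this is no contrast with the sum. The part of leptomeningeal content in these falls was not tested. The 10 choroid plexus markers varied widely within both groups, with sums of 46591 to 161645 in sham and 57000.3 to 433766 in MCAO. None of 22 choroid plexus and ependymal genes was called in either fit.

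The largest rises outside the cytokine, glial and blood cell lists included a protease, innate immune receptors and secreted inhibitors. Mmp3, the matrix protease stromelysin-1, stayed near background on all sham arrays and read 16800, 3500 and 3900 on MCAO arrays 1 to 3, a rise of at least 576-fold. Lilrb4a, an inhibitory receptor of myeloid cells, was measured on all sham arrays, at 159, 133 and 120, and read 46700, 20100 and 21000 in MCAO, a rise by 7.63 ± 0.64 log2 units (limma adjusted p = 0.00108). Its neighbour in sequence and name, Lilr4b, read 25.6, 22.5 and 17.5 in sham and 4910, 2820 and 2350 in MCAO. Probes for such closely related genes may detect each other's transcripts, which was not tested. Hcar2, the receptor for niacin and ketone bodies, read 1450, 337 and 990 in MCAO on its brighter probe, with all 3 sham arrays near background, a rise of at least 73.9-fold (limma adjusted p = 0.000535). Its second probe differed by 2.75 log2 units.

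Gdf15, a stress-induced cytokine of the TGF-beta family, rose by 6.95 ± 0.78 log2 units from 73.4, 43.1 and 20.8 to 10200, 5850 and 2100. Atf3, a stress-induced transcription factor, read 97, 111 and 105 in sham and 23600, 12900 and 7490 in MCAO. Tubb6, a beta tubulin, read 436, 589 and 505 in sham and 61000, 30800 and 27800 in MCAO. For all 3 the highest sham array was far below the lowest MCAO array. limma adjusted p was 0.00356 for Gdf15, 0.00261 for Atf3 and 0.000768 for Tubb6.

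A second set of rises varied widely among the MCAO arrays. Slpi, an inhibitor of leukocyte elastase, read 44.7, 120 and 62.7 in sham and 54000, 1230 and 9130 in MCAO. Acod1, which makes itaconate in macrophages, read 18.3, 29.7 and 24.8 in sham and 7140, 278 and 5740 in MCAO, and Wfdc21 5270, 255 and 2780 in MCAO. Array 2 was the lowest of the 3 in each, and array 1 the highest. Cstdc4, a cystatin-domain gene, rose at least 49.2-fold, Mmp8, the neutrophil collagenase, at least 32.5-fold, and Tmem252 at least 70.1-fold. Their MCAO readings were 1720, 84.1 and 990, 1510, 79.7 and 343 and 2380, 515 and 417. The C-type lectin receptor gene Clec4e rose at least 133-fold, and its neighbour Clec4d read 13600, 1300 and 4750 in MCAO with 1 of 3 sham arrays above background. Sirpb1b, an activating paired receptor, read 18.1, 13.7 and 11.9 in sham and 2970, 796 and 1260 in MCAO. Ms4a8a rose at least 27.3-fold and Pira2, also an activating paired receptor, at least 26.1-fold. Acod1, Cstdc4, Mmp8, Tmem252 and Wfdc21 were not called with normexp background. Of the 20 named rises 13 stayed called whichever array was left out, and limma also called 13 without sham array 1, 2 or 3 alone and 15 without MCAO array 3.

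**Figure D3:**
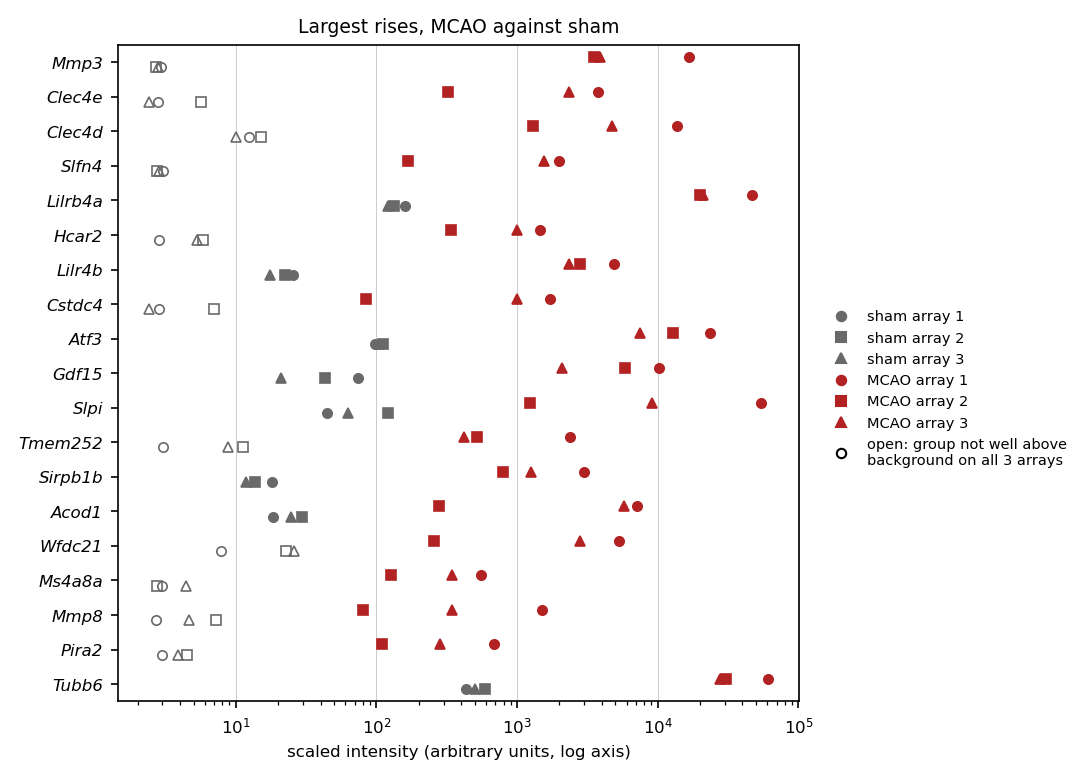
Scaled intensity on each sham (grey) and MCAO (red) array for 19 of the 20 largest rises outside cytokine and glial marker lists, on a log axis. Open symbols mark a group that was not well above background on all of its arrays. All MCAO symbols lie right of all sham symbols, because the genes were chosen for groups that do not overlap. Lilrb4a read 159, 133 and 120 in sham and 46700, 20100 and 21000 in MCAO.

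Promoter sequences, 250 bases before to 50 after the gene's start, were taken from RefSeq (GRCm38.p6) for 15 of the 20 named rises and 24 of the 30 named falls. The AP-1 element is bound by dimers of Fos, Jun and related proteins. Written as TGANTCA and searched on both strands, it was in 3 of the 15 rises, Mmp3, Slfn4 and Ms4a8a, and in none of the 24 falls. Those 3 are shown for the element, in capitals, with the promoters of 2 of the largest falls, Fibcd1 and Retnla, for contrast. The Mmp3 window is chr9:7445572-7445871 on the plus strand, with its element starting 46 bases before the gene's start. That of Slfn4 is chr11:83174936-83175235 on the plus strand, with the element 34 bases before. That of Ms4a8a is chr19:11081054-11081353 on the minus strand, with the element 244 bases before. The windows of Fibcd1 (chr2:31845956-31846255) and Retnla (chr16:48842359-48842658) are on the minus and plus strand.
Mmp3: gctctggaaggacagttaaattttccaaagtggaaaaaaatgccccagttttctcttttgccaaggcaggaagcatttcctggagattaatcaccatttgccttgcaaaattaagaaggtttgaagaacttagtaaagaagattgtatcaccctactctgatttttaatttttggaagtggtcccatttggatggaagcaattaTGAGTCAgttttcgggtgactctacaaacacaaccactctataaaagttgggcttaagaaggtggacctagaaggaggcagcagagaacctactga
Slfn4: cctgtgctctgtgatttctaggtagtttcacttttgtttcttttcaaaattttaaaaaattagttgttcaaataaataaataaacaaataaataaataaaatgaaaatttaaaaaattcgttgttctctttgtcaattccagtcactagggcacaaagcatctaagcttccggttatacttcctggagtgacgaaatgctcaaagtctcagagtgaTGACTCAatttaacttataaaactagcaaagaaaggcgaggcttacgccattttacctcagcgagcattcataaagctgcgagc
Ms4a8a: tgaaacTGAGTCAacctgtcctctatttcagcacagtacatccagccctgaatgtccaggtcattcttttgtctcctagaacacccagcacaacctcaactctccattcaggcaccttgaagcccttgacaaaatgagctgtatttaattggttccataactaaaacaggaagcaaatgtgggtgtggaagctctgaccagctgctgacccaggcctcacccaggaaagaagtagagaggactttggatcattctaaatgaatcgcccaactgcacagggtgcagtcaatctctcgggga
Fibcd1: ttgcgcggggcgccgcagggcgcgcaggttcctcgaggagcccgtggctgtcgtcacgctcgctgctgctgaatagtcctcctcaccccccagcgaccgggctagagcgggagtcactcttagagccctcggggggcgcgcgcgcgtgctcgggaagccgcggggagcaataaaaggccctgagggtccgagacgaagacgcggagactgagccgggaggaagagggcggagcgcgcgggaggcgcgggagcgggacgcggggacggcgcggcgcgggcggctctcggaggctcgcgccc
Retnla: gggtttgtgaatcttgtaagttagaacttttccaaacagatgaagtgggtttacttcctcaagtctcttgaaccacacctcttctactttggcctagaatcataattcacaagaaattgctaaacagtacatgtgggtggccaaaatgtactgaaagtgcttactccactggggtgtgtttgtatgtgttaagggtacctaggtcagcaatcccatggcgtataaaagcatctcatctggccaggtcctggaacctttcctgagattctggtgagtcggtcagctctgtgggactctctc

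Over all called genes with a promoter, TGANTCA was in 18.3% of 448 genes called higher, 3.53% of 85 called lower and 7.34% of the 13932 tested. The interferon response element (ISRE, GAAA-NN-GAAA) was in 11.6%, 5.88% and 3.83%. The kappa-B element was in 17.9%, 15.3% and 11.8%. The cyclic AMP element TGACGTCA was less frequent among genes called higher, at 0.893%, than among those called lower, at 2.35%, or all tested, at 2.99%. The serum response CArG box was in 1.12%, 3.53% and 1.70%, and the E-box CACGTG in 9.38%, 11.8% and 10.3%, highest among genes called lower for both. These are shares of letters in a short window and were not tested. They show no binding of any factor.

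Matrix proteases and their inhibitors include enzymes that cut basement membrane and the proteins that hold them in check. Of 48 tested 10 rose and none fell, against 2.28% of all genes called higher, and the list's median was 1.03. Mmp3, Mmp8 and Mmp13, among the 10, were above background on no sham array. They passed the filter only through occluded groups, which favours a rise in the count and median. Timp1, among the 10, is also on the list of reactive glia markers. The inhibitor Timp1 rose by 6.70 ± 0.46 log2 units (limma adjusted p = 0.000503), from 203, 206 and 219 to 21400, 17000 and 28200, and here MCAO array 3 was the highest. Plaur, the receptor of urokinase, read 139, 181 and 186 in sham and 18900, 5230 and 4520 in MCAO, and Adamts1, which cuts proteoglycans, 604, 855 and 967 in sham and 33500, 11100 and 9130 in MCAO. MCAO array 1 was the highest in both, and arrays 2 and 3 were alike. Adam8, a sheddase of leukocytes, rose by 4.86 ± 0.76, Ctsc, the protease that activates granule enzymes, by 3.05 ± 0.30, and the collagenase Mmp13 at least 5.46-fold. Ctsc was even across arrays, at 434, 565 and 486 in sham and 4270, 3890 and 4070 in MCAO. Timp2 was called lower with 7 arrays (-0.84), but 1 of its 2 probes had the opposite sign.

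Of 54 matrix glycoprotein and proteoglycan genes 5 rose and none fell. Spp1 and Cd44, among the 5, are also on the list of reactive glia markers. Spp1, which encodes osteopontin, rose by 5.29 ± 0.65 log2 units (limma adjusted p = 0.00602), from 682, 740 and 380 to 21400, 29400 and 18100, and MCAO array 2 was the highest. The hyaluronan receptor gene Cd44 rose by 2.95 ± 0.38 (752, 665 and 696 to 7950, 4670 and 4320), the syndecan Sdc4 by 2.32 ± 0.35, thrombospondin-1, Thbs1, by 3.57 ± 0.72 and Ccn5 by 1.41 ± 0.25. With 7 arrays 21 were called higher and 9 lower. The lower were 16.7% of the list, against 13% of all genes. Among them Hapln1, a link protein of perineuronal nets, read 1740, 1860 and 2170 in sham and 597, 981 and 800 in MCAO, and the proteoglycan gene Bcan 70200, 99300 and 90400 in sham and 71100, 45200 and 45200 in MCAO. In Bcan, MCAO array 1 lay within the sham range and arrays 2 and 3 below it. Mmp3, Timp1, Ctsc, Cd44 and Spp1 stayed called whichever array was left out. Ccn5, Mmp13, Mmp8, Thbs1 and Mmp19, the last named for this loss after its values were seen, were not called with normexp background.

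Fc, paired and Cd300 receptors include activating and inhibitory receptors on myeloid cells. The list counted here also holds C-type lectin receptor genes and Treml2. Clec4a1, Clec4a3, Clec4d, Clec4e, Clec4n and Treml2 are among its rises. Of 38 tested 18 rose and none fell, and the median was 2.30 log2 units. Clec4e, Pilrb1 and Pira2, among the 18, were above background on no sham array. They too passed the filter only through occluded groups, which favours a rise. With normexp background 13 rose and the median was 1.39. Both activating and inhibitory members rose. Pirb, an inhibitory paired receptor, rose by 5.60 ± 0.56 (limma adjusted p = 0.00227), from 126, 130 and 146 to 15500, 2570 and 6770, and Sirpb1a, an activating one, by 5.08 ± 0.45 (0.00137), from 55, 44 and 41.5 to 2820, 940 and 1480. Fcgr2b, the inhibitory Fc receptor for immunoglobulin G, rose by 3.39 ± 0.34, with 198, 216 and 213 in sham and 2520, 1840 and 2250 in MCAO. Its MCAO arrays were closer together than those of Pirb. Pilrb1 rose at least 8.43-fold from below background. Without the pair, 24 were called higher and 2 lower, Cd300lg, a receptor of vessel walls (-1.37), and Siglecg, whose 2 probes differed in sign.

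Tumour necrosis factor receptors pass signals for survival, inflammation and cell death. Of 26 tested 6 rose and 1, Tnfrsf17, fell. Tnfrsf12a, the receptor of TWEAK, rose by 5.12 ± 0.55 log2 units (limma adjusted p = 0.00305), from 419, 1320 and 440 to 28400, 20700 and 17500, with sham array 2 higher than the other sham arrays. Tnfrsf1a read 2470, 2760 and 2470 in sham and 29000, 15800 and 14300 in MCAO, Tnfrsf1b 38.1, 68.1 and 74.9 in sham and 1100, 369 and 589 in MCAO, and the death receptor gene Fas 226, 363 and 247 in sham and 1900, 1130 and 1850 in MCAO. All 3 were separated from sham on every array, as all called genes were. Ltbr rose by 2.66 ± 0.44 and Tnfrsf18 read 14.6, 26.7 and 16.8 in sham, with 2 of 3 arrays above background, and 115, 99 and 129 in MCAO. Of the 25 genes called in the receptor families of these 2 paragraphs, 12 stayed called whichever array was left out. Without sham array 1, 2 or 3 limma called 13, 14 and 12 of them, and without MCAO array 3, 14. With normexp background 8 of the 25 were lost, among them Pilrb1, Tnfrsf17 and Tnfrsf18.

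Markers of some blood cells moved with these receptor genes. Of 12 markers of blood monocytes and macrophages 9 rose, with a median of 4.17; their summed intensity was 565472 to 593903 in sham and 580208 to 849790 in MCAO, ranges that overlapped, and Msr1 was not above background in sham. Of 11 neutrophil markers 5 rose, with sums of 123595 to 155634 in sham and 160844 to 366540 in MCAO, and Cxcr2 was not above background in sham. Of 12 microglia markers 1 fell, P2ry12, and none rose with 9 arrays, with sums of 171193 to 176813 in sham and 269044 to 320187 in MCAO. With 7 arrays 3 of the 12 were called higher and 3 lower (25% each, against 9.79% and 13% of all genes). Of 11 lymphocyte markers 2 rose, and their sums overlapped, at 14814.8 to 18438.8 in sham and 14658.7 to 19125.9 in MCAO. Of 7 red blood cell markers none was called by limma with 9 arrays and 2 were called higher with 7, and their sums did not overlap, at 183491 to 365450 in sham and 470775 to 722894 in MCAO. The part of blood cells in the receptor values was not tested.

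Immediate stress and activity signals reach genes through basic leucine zipper factors. Of 35 AP-1, Atf and small Maf genes 6 rose, none fell and 3 lay below 0, with a median of 0.90 log2 units. With 7 arrays 21 rose, or 60% against 9.79% of all genes. Maff read 56.6, 98.9 and 108 in sham and 6890, 3100 and 3610 in MCAO, Fosl1 84.2, 67.1 and 69.1 in sham and 4650, 1570 and 956 in MCAO, and Batf, a factor of immune cells, 79.4, 84.6 and 94.7 in sham and 2250, 547 and 1160 in MCAO. In all 3, array 1 was the highest and no MCAO value came near sham. Cebpd, which drives acute-phase genes, rose by 4.03 ± 0.47 (limma adjusted p = 0.00442), from 2280, 3830 and 5520 to 80400, 50100 and 52200, and Atf5 by 1.82 ± 0.35. Of 23 Ets and Runx genes 1 rose, Runx1, at 54.1, 67.6 and 46.8 in sham and 2250, 514 and 430 in MCAO (limma adjusted p = 0.0284). Spi1, the master factor of myeloid cells, read 41.7, 22.7 and 25.2 in sham and 166, 90.7 and 84.9 in MCAO and was called higher with 7 arrays.

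Krüppel-like factors split: Klf16 fell by 1.5 log2 units (limma adjusted p = 0.00713), from 2870, 2170 and 2600 to 809, 882 and 999, and no other of 17 was called with 9 arrays. Klf2, a factor of endothelium under flow, read 1460, 2080 and 2660 in sham and 8300, 3590 and 4140 in MCAO and was called higher with 7. The median of this list changed sign with quantile or median scaling. Of 33 homeobox and SRY-box genes none was called, and Sox7, an endothelial factor, read 117, 194 and 207 in sham and 921, 651 and 614 in MCAO.

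Feedback inhibitors end cytokine and NF-kappaB signals. Of 24 tested 5 rose and none fell. Bcl3, a nuclear IkappaB protein, rose by 5.60 ± 0.32 log2 units (limma adjusted p = 0.000212), from 118, 172 and 218 to 11000, 6760 and 6780. Socs3, which blocks JAK-STAT signalling, read 724, 503 and 1110 in sham and 46100, 22400 and 25700 in MCAO, and the RNA-destabilising proteins Zfp36 and Zc3h12a 875, 495 and 385 and 397, 127 and 209 in MCAO, against 31.1, 40.8 and 35.6 and 26.3, 14.4 and 22.4 in sham. Nfkbie rose by 1.55 ± 0.31. None of 30 dual-specificity phosphatase, Spry and Spred genes was called; Dusp2 read 624, 771 and 982 in sham and 3750, 2230 and 3090 in MCAO. Of the 13 transcription and feedback genes called, Atf3, Bcl3, Cebpd, Klf16, Maff, Socs3 and Zc3h12a stayed called whichever array was left out. Nfkbie, Runx1 and Zfp36 were lost with normexp background.

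Schlafen genes are induced by interferon in immune cells. Of 8 tested 4 rose, Slfn1 to Slfn4, none lay below 0, and the median was 3.37 log2 units. Slfn1, Slfn3 and Slfn4 were above background on no sham array. They passed the filter only through occluded groups, which favours a rise in the count, sign and median. With normexp background 2 rose and the median was 1.41. Slfn2 read 68.7, 107 and 91.5 in sham and 3750, 771 and 1390 in MCAO (limma adjusted p = 0.00911). Slfn1 and Slfn3 rose at least 7.81-fold and 13.9-fold. The MCAO readings of Slfn4 were 1980, 167 and 1540, and in all 4 genes array 2 was the lowest. Guanylate-binding and immunity-related GTPases are also induced by interferon. Of 15 tested 5 rose. Over both lists the median was lowest on array 2, at 4.44, 1.96 and 3.39 on arrays 1 to 3 for the Schlafen genes and 1.28, 0.69 and 1.30 for the GTPases. Gbp2 read 848, 918 and 900 in sham and 4630, 4680 and 7720 in MCAO, Irgm1 1190, 1320 and 1070 in sham and 5000, 4870 and 7060 in MCAO, and Igtp 1340, 2280 and 2060 in sham and 6630, 4760 and 8980 in MCAO, with array 3 the highest in each. limma gave adjusted p of 0.00132, 0.00162 and 0.0195. Gbp2, Irgm1, Slfn1 and Slfn4 stayed called whichever array was left out. Slfn1, Slfn3 and Gbp7 were lost with normexp background.

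Genes of the cell's scaffold rose in part. Vim, the filament protein vimentin, rose by 3.72 ± 0.47 log2 units (limma adjusted p = 0.00699), from 5460, 6250 and 6260 to 140000, 76300 and 45800, the single call among 27 intermediate filament genes. Nes, which encodes nestin, read 1810, 2190 and 2060 in sham and 57100, 12400 and 8500 in MCAO, and Gfap 13000, 12600 and 11400 in sham and 23400, 72400 and 50500 in MCAO; both were called only with 7 arrays. Gfap differed from Vim and Nes in that MCAO array 1 was the lowest of the 3. Vim, Nes and Gfap are all on the glial marker lists. Nefl, the light neurofilament, was called lower with 7 arrays, at -0.82. Of 52 actin and integrin adhesion genes 7 rose and 1 fell. Flnc, filamin C, read 403, 447 and 381 in sham and 29100, 9240 and 6010 in MCAO (limma adjusted p = 0.00961), Tagln2 4900, 6360 and 5810 in sham and 125000, 55700 and 45200 in MCAO, and Capg, an actin capper of macrophages, 2140, 2580 and 2340 in sham and 57900, 24600 and 18900 in MCAO. Msn rose by 3.35 ± 0.61, Arpc1b by 3.15 ± 0.51, Ezr by 1.69 ± 0.30 and Cnn3 by 1.30 ± 0.22. The smooth muscle light chain Myl9 fell by 1.15 ± 0.25, a call lost with quantile and median scaling, normexp background, no detrending and the 6 arrays alone.

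Annexins bind membranes in a calcium-dependent way, several together with S100 partners. Of 15 tested 5 rose. Anxa2 read 6880, 6850 and 6960 in sham and 165000, 52300 and 45400 in MCAO, and its partner S100a10 3530, 4610 and 4190 in sham and 16000, 10900 and 10400 in MCAO. S100a10 rose by 1.58 ± 0.26 log2 units and Anxa2 by 3.41 ± 0.62 (limma adjusted p = 0.0195 and 0.0260). S100a6, S100a4 and S100a11 rose by 2.94 ± 0.52, 3.22 ± 0.48 and 3.12 ± 0.49. Lgals3, a galectin of activated macrophages and microglia, rose by 6.57 ± 0.87 (limma adjusted p = 0.00800), from 407, 505 and 331 to 104000, 32400 and 17300, the single call among 9 galectin genes. Lgals3 is also on the list of reactive glia markers. Lgals1 read 6160, 5850 and 5300 in sham and 52700, 24800 and 18700 in MCAO and was called with 7 arrays. Without sham array 1, 0 of the 15 called scaffold, annexin and galectin genes stayed called by limma, and without sham array 2 or sham array 3 it called 3 and 2 of them.

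Growth factors act on growth, repair and vessel formation. Of 16 genes of the EGF family Hbegf rose by 2.65 ± 0.50 log2 units (limma adjusted p = 0.0298), from 1600, 2130 and 1950 to 15700, 10700 and 9730. Ereg and Btc, ligands of the same receptors, read 264, 36.6 and 35.8 and 897, 87.4 and 41.5 in MCAO. Array 1 was far above arrays 2 and 3 for both. Neither was called with 9 arrays (limma adjusted p = 0.130 and 0.163), and both were called with 7. Ereg was above background on no sham array and passed the filter only through an occluded group, which favours a rise. Of 59 genes of the TGF-beta family 4 rose and 1 fell. Tgfbi, a matrix protein induced by TGF-beta, read 2310, 2340 and 1500 in sham and 91700, 26100 and 25400 in MCAO, Ltbp2 59, 108 and 71.8 in sham and 1300, 468 and 739 in MCAO, and the repressor Tgif1 280, 424 and 359 in sham and 10100, 4090 and 3400 in MCAO. Gdf10 fell by 1.74 ± 0.32 (limma adjusted p = 0.0271), from 1030, 961 and 857 to 295, 326 and 239, evenly over the MCAO arrays. Nog, the BMP antagonist noggin, read 855, 862 and 897 in sham and 1530, 422 and 315 in MCAO, array 1 above and arrays 2 and 3 below sham.

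Of 45 fibroblast, platelet-derived and insulin-like growth factor genes 2 rose and 1 fell. Fgf2 rose by 2.60 ± 0.41 log2 units from 22.9, 21.9 and 26.4 to 197, 116 and 128 (limma adjusted p = 0.0156), and Igfbp7, a vessel-associated binding protein, by 3.14 ± 0.64. Fgf13, which binds sodium channels inside neurons, fell by 2.03 ± 0.38 from 3780, 2290 and 2550 to 397, 1100 and 748 (limma adjusted p = 0.0298). Ntf3, the neurotrophin NT-3, read 1870, 1420 and 1570 in sham and 25.1, 660 and 344 in MCAO. MCAO array 1 was far below the others, and Ntf3 was called lower with 7 arrays only, at -1.75. Gdf15 was the single gene of the 9 called here that stayed called whichever array was left out, and Fgf2 and Igfbp7 were lost with normexp background.

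Lipid mediators and extracellular nucleotides act between cells. Of 29 prostaglandin and lipoxygenase genes 3 rose: the prostacyclin receptor gene Ptgir (12.6, 12.7 and 18.2 to 531, 223 and 201; limma adjusted p = 0.0358), and the leukotriene enzymes Alox5 (1.88 ± 0.30) and Alox5ap (2.00 ± 0.42). Purine receptors split by member. P2ry12, the ADP receptor of resting microglia, fell by 2.67 ± 0.20 log2 units (limma adjusted p = 0.000610), from 2530, 3040 and 2840 to 392, 484 and 452, with the 3 MCAO arrays alike. P2ry6, a UDP receptor linked to phagocytosis, rose by 2.86 ± 0.35 from 580, 830 and 727 to 6590, 5050 and 4030, and P2ry2, for ATP and UTP, by 4.15 ± 0.75 from 74.3, 109 and 133 to 4820, 1180 and 1050. P2ry10 rose at least 2.50-fold. P2ry13, a second ADP receptor of microglia, read 1510, 1180 and 1180 in sham and 610, 562 and 498 in MCAO and was called lower with 7 arrays (-1.27; limma adjusted p = 0.00543). P2ry12 and P2ry6 stayed called whichever array was left out, and P2ry10 and Ptgir were lost with normexp background.

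Metabolic and protein-making families held few calls. Arg1, the arginase of alternatively activated macrophages and a monocyte marker here, rose by 6.18 ± 0.70 log2 units (limma adjusted p = 0.00412), from 68.1, 27.7 and 39.2 to 7690, 1120 and 3260, the single call among 22 arginine and polyamine genes. The polyamine enzymes Odc1 and Sat1 read 7530, 7850 and 6330 and 1660, 2350 and 2100 in sham and 54800, 25100 and 20700 and 12000, 6640 and 6260 in MCAO and were called higher with 7 arrays. Of 21 serine and one-carbon genes 2 rose, Mthfd2, a mitochondrial folate enzyme (2.16 ± 0.39), and Chac1, which degrades glutathione (1.1). Chac1 was tight in both groups, at 4960, 5060 and 4630 in sham and 10400, 11200 and 9820 in MCAO. None of 20 aminoacyl-tRNA synthetase genes was called with 9 arrays.

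Ncl, the nucleolar protein nucleolin, rose by 1.60 ± 0.17 log2 units (limma adjusted p = 0.00268), from 7900, 8720 and 9290 to 26900, 26900 and 24600, and the nucleolar helicase gene Ddx21 by 2.96 ± 0.48. They were the 2 calls among 40 ribosome biogenesis genes. The transcription factor Myc, which drives such genes, read 263, 275 and 294 in sham and 3300, 1530 and 1100 in MCAO and was called higher with 7 arrays. Of 39 proteasome genes 2 rose, the immunoproteasome subunit Psmb8 (783, 792 and 625 to 6230, 3170 and 4180; limma adjusted p = 0.0208) and the activator Psme4 (0.98 ± 0.20). Psme4 was lost with median scaling, normexp background, no detrending and the mean of its probes, and Mthfd2 with normexp background. Arg1 and Ncl stayed called whichever array was left out.

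**Figure D4:**
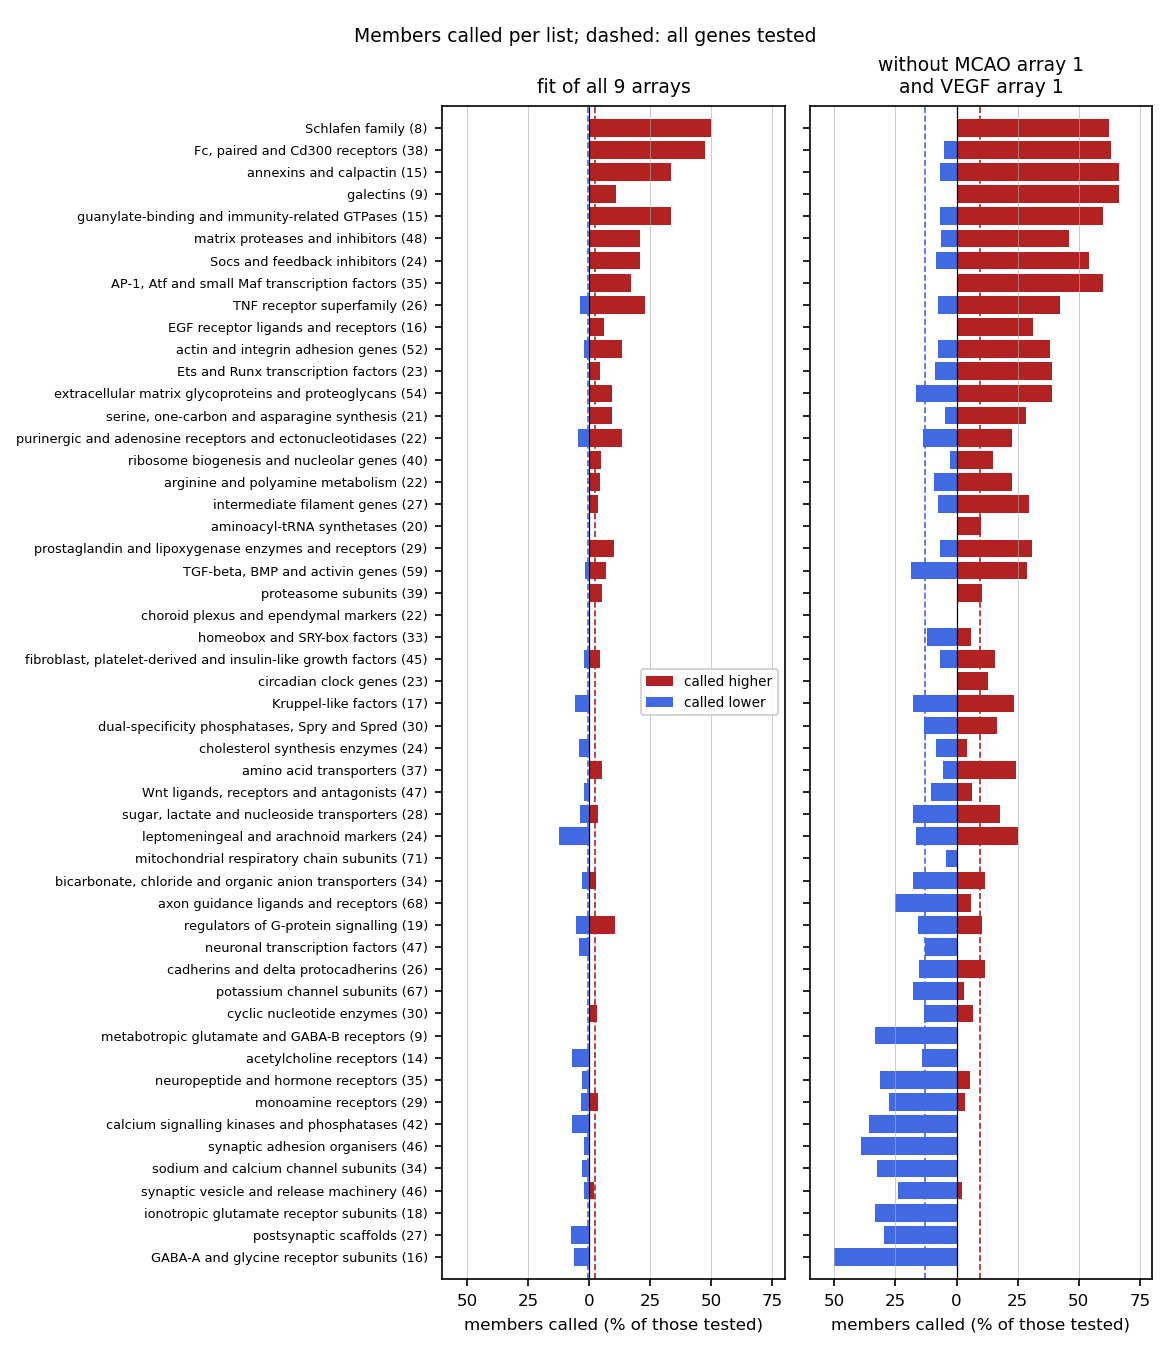
Share of each list's tested genes called higher (red, right) and lower (blue, left) in the fit of all 9 arrays and in the fit without MCAO array 1 and VEGF array 1; dashed lines mark all genes (2.28% and 0.535%, then 9.79% and 13%). Receptor and synapse lists hold few calls on the left panel and up to 8 of 16 called lower on the right (GABA-A and glycine receptors).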

How the data were processed

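Brain RNA of 9 mice (3 groups of 3) was hybridised to 1-colour arrays. The scanner files hold Cy3 intensity processed by the authors with Agilent Feature Extraction 10.7.1.1, per the file headers, and the deposited value table holds log2 values that correlate at 0.998 to 1.000 with these signals. A deposited ratio gives each spot's spatial trend, and the authors' processed signal equals the background-subtracted one divided by it, as checked on the values, except on MCAO array 1, which was not detrended, and on 13 probes of the sham or MCAO arrays, where it differed by more than 1.5-fold for a reason not found. These probes stayed in the fit and its counts, were left out of the naming, and were dropped in 1 alternative (853 called). From the intensity, log2 values minus each array's 75th percentile were computed, spots of a probe averaged, and a probe kept where every array of at least 1 group had it well above background. A probe above background on no sham array passed only through an occluded group, which favours a rise. Likewise a probe above background on no MCAO array passed through sham or VEGF, which favours a fall. limma 3.58.1 in R 4.3.3 fitted all 9 arrays with 1 mean per group, and p-values were adjusted over 30837 genes. Nothing says more of the replicates than that they are different mice.

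The gene lists and the members were chosen with earlier results of these data known. Named are the 20 largest rises and 30 largest falls among called genes with a symbol, matching signal and groups that do not overlap. They lie outside the cytokine, glial, monocyte and neutrophil lists. Named too are, per list, called members by smallest p, uncalled members of smallest p, and the largest falls of the 7-array fit. Deviations of sham and MCAO arrays of the same number correlated at 0.03, -0.11 and 0.15, and those of different numbers at -0.15 to 0.13. With 3 arrays per group these values cannot exclude pairing. The labels name none, and no block was used in the main fit. Alternatives covered scaling, background, filter, probe choice, samples and covariates. A few named genes and 1 gene list are not reported here.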

Additional observations from a re-analysis of the deposited data

How the results depend on the processing

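The direction of every called gene named in the text was kept under every alternative run, and the counts of calls moved. With normexp background 558 genes were called, 417 of them higher. With the MCAO and sham arrays alone 1788 were called (1381 higher, 407 lower), with age as a covariate 1594 (1185 and 409), and with array weights 18457 (7221 and 11236), a fit whose weights gave a convergence warning. Without MCAO array 1 and VEGF array 1 the counts were 7028 (3018 and 4010), and without MCAO array 1 in the 6-array fit 7945 (3233 and 4712). Leaving out 1 array at a time gave 190 to 2583 called, 175 to 1871 higher and 15 to 712 lower. The replicate block, for numbers that the labels do not describe as pairs, gave 1229 called (976 and 253), and 473 (436 and 37) with the 6 arrays alone. The cause of these shifts was not tested. Quantile and median scaling, the deposited table, no detrending, the filters, the mean of probes and leaving out discrepant probes kept all 3 counts within 1.5 times. The 3 arrays per group limit the precision, and dim genes near background have bounds only.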
